A study of Mus musculus with 8 samples.

Results

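The collagens and the proteins that modify and process them were examined in smooth muscle cells cultured from mouse carotid arteries and labelled by PMCA4 genotype. Array probes were taken where the annotated symbol was that of a collagen chain, began with P4ha, Plod or Pcolce, or was Bmp1, Colgalt1, Leprel1, Lepre1 or Crtap. This gave 79 of the 25697 probes, standing for 50 of 16593 genes, of which 37 encode collagen chains and 13 encode processing proteins. Lepre1 and Leprel1 are given here under their current names P3h1 and P3h2.

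One set of cells was labelled PMCA4 knockout (PMCA4 KO) and was set against cells labelled wild type (PMCA4 WT), with 4 arrays of each. PMCA4 is a calcium pump of the plasma membrane, encoded by Atp2b4. All were primary vascular smooth muscle cells from male mice of the C57bl6 background, and no age was given. Before sorting, they were serum synchronised, given serum together with PDGF-BB, a growth factor for smooth muscle, and stained with Hoechst, a DNA dye by which early G1 cells were then collected. Whether the 4 arrays of a genotype stand for 4 animals, 4 cultures or repeats of one is not stated, so the p-values rest on the spread between these arrays, and that may be technical.

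Collagens are secreted matrix proteins in which chains wind around each other as a triple helix. The chains are hydroxylated, glycosylated and folded in the endoplasmic reticulum, trimmed by proteases outside the cell and then crosslinked. Fibrillar collagens, mainly types I and III in the artery wall, form the fibres of the media and adventitia. Type IV forms the sheet of the basement membrane that surrounds each contractile smooth muscle cell, and FACIT collagens sit on the surface of fibrils. Smooth muscle cells make both fibrillar and basement membrane chains.

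Values are background-corrected, quantile normalised log2 intensities, and changes are PMCA4 KO minus PMCA4 WT on that scale, with 95% confidence intervals. A probe counted as detected on an array when its deposited detection p was under 0.05, and it was tested when detected on at least 4 of the 8 arrays. A gene was represented by its brightest tested probe, and it passed when its adjusted p from limma, over all 12040 probes tested, was under 0.05. Of the 8302 genes tested in the whole series, 57.6% passed, 26.9% higher and 30.7% lower in PMCA4 KO, so passing the test alone sets no gene apart. The groups were far apart as a whole, with 87.26% of the variance on the first principal component. Precision is limited by the small number of arrays.

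The probe of Atp2b4 that was above background gave 7.17, 6.99, 6.56 and 7.07 on the PMCA4 KO arrays, against 6.72, 6.90, 7.05 and 6.89 on the PMCA4 WT arrays. The groups overlapped, and the change was 0.06 (95% confidence interval -0.23 to 0.34, adjusted p = 0.719). The other 2 probes were detected on no array. Which exons were deleted is not stated in the labels, and a probe outside them checks nothing, so the directions given below rest on how the arrays were labelled.

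Of the 50 collagen and processing genes, 28 were tested. Of these, 15 were higher in PMCA4 KO, 2 were lower and 11 did not pass, beside 26.9% higher and 30.7% lower over all genes tested. All PMCA4 KO arrays lay above all PMCA4 WT arrays for 15 genes and below them for 2, where 24.6% and 28.9% of all genes tested were so separated, or 53.5% in either direction. The median change of the 28 genes was 0.31, and that of all genes tested was -0.02, with quartiles of -0.29 and 0.26. Changes of at least 2-fold were found for 7 genes higher and 1 lower, in a background of 5.85% and 5.38% of all genes. All 17 genes that passed were detected on all 8 arrays, so none of them entered the test through one genotype alone.

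**Figure D1:**
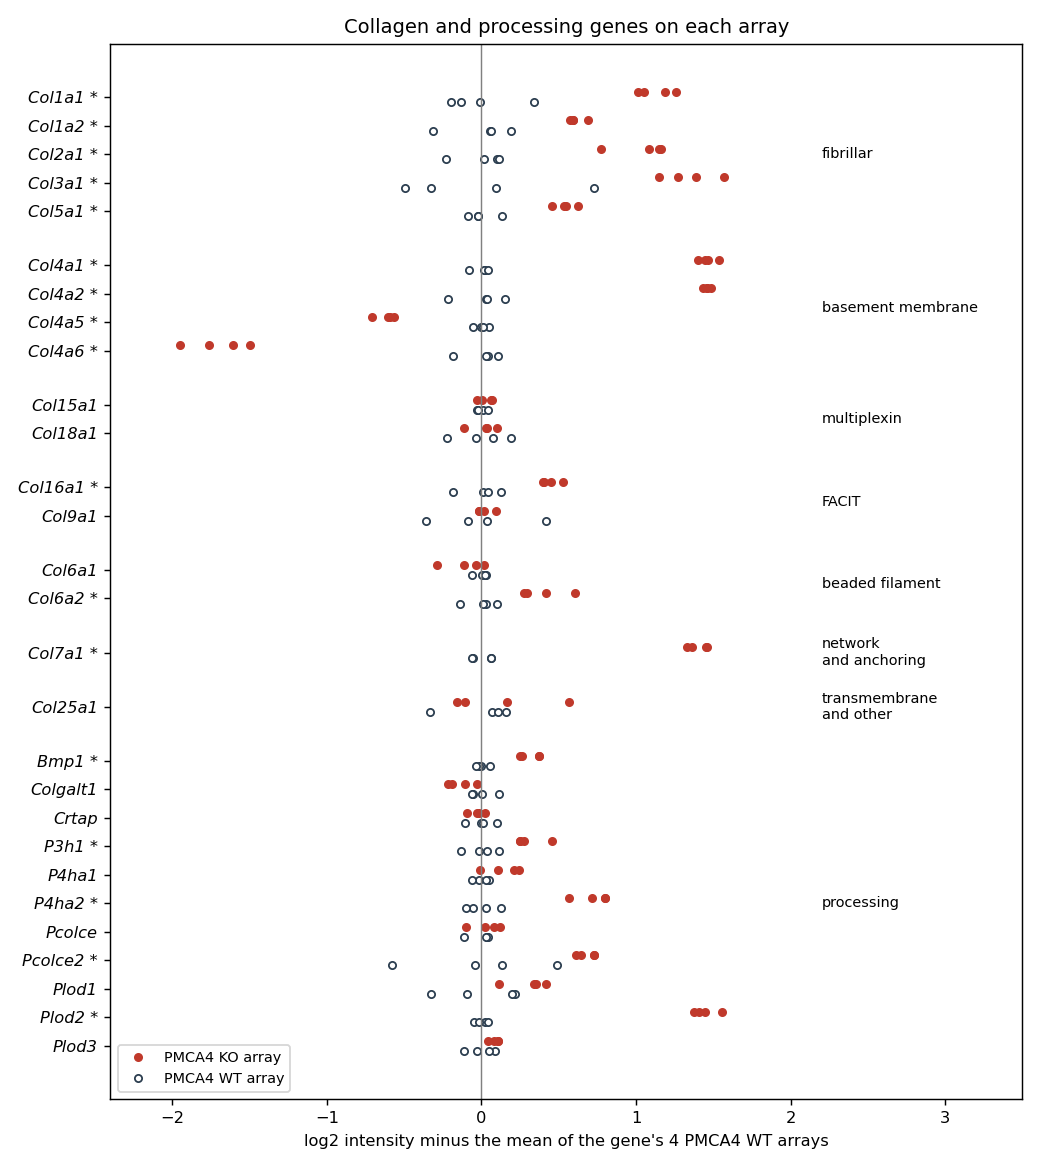
Log2 intensity of each tested collagen and processing gene on each array, minus the mean of the gene's 4 PMCA4 WT arrays (horizontal axis), with genes grouped by class down the page. Filled points are PMCA4 KO arrays, open points are PMCA4 WT arrays, and a star marks an adjusted p under 0.05. The 5 fibrillar genes lie to the right, the type IV genes lie on both sides, and the processing genes range from Colgalt1 at a mean of -0.13 to Plod2 at 1.45.

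The remaining 22 genes were not tested. In 17 of them no array reached detection, with lowest detection p-values between 0.0551 for Col5a3 and 0.949 for Col13a1. These were the fibrillar chains Col5a3, Col11a1, Col24a1 and Col27a1, the basement membrane chains Col4a3 and Col4a4, the FACIT chains Col9a3, Col14a1 and Col19a1, and Col6a6, Col8a2, Col10a1, Col13a1, Col23a1, Col26a1, Col28a1 and P3h2. The other 5 were detected on 1 to 3 arrays. P4ha3, a catalytic subunit of collagen prolyl 4-hydroxylase, was detected on 3 PMCA4 KO arrays and 0 PMCA4 WT arrays. Col5a2, a type V fibrillar chain, was detected on 2 PMCA4 KO arrays and 0 PMCA4 WT arrays. P4ha3 was 1.18-fold and Col5a2 1.11-fold higher in PMCA4 KO by the following rule. Each PMCA4 WT array is entered at the lowest value of any detected probe, or at the probe's own value where that is higher. Each PMCA4 KO array is entered at its own value, detected or not, so for P4ha3 and Col5a2 these folds are not lower bounds. The lower bounds given further on follow the same rule, for probes detected on all 4 PMCA4 KO arrays, and hold only on the scale used here. Col11a2, Col9a2 and Col17a1 were each detected on at most 1 array per genotype.

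Markers of other cell types moved with the genotypes. Over all genes tested, 26.9% were higher and 30.7% lower in PMCA4 KO, the background for each marker list. Of 10 fibroblast markers, 9 were tested and 8 were higher in PMCA4 KO, with a median change of 3.02, and only Tcf21 was detected on no array. The summed normalised intensity of the 10 fibroblast markers was 36338.7 to 39380.6 on the PMCA4 KO arrays, against 3794.8 to 3974.2 on the PMCA4 WT arrays. Dcn was the largest part of the PMCA4 KO sum, at mean log2 values of 14.14 in PMCA4 KO and 7.37 in PMCA4 WT. Of 10 contractile smooth muscle markers, 6 were tested, 5 were higher and Smtn was lower, while Cnn1 and Synpo2 were detected on no array. The 10 markers summed to 66303.0 to 69571.7 on the PMCA4 KO arrays, against 35310.7 to 40876.2 on the PMCA4 WT arrays. Most of that sum was Acta2, at mean log2 values of 15.93 in PMCA4 KO and 15.10 in PMCA4 WT, so it says little of the other markers. None of 7 endothelial or 3 Schwann cell markers was tested. Emcn and Mbp were each detected on 0 PMCA4 KO and 2 PMCA4 WT arrays, with every PMCA4 KO array below every PMCA4 WT array, at means of 4.87 in PMCA4 KO and 5.87 in PMCA4 WT for Emcn and of 5.13 in PMCA4 KO and 5.75 in PMCA4 WT for Mbp. The other 6 endothelial markers, Pecam1, Cdh5 and Vwf among them, and the other 2 Schwann cell markers were detected on no array. Of 7 leukocyte markers, 3 were tested. Cd14 was lower, Cd3e was at least 1.87-fold and Lyz2 at least 2.40-fold higher, and the other 4, Ptprc and Itgam among them, were detected on no array. Cd3e, Lyz2, Myh11, Mylk and Lum were detected on all 4 PMCA4 KO arrays and 0 PMCA4 WT arrays, so they entered the test through PMCA4 KO alone and had to differ. The bounds for Myh11 and Mylk were at least 1.98-fold and at least 11.7-fold higher. Skeletal muscle markers had 2 of 7 tested and Actn3 higher, and epithelial and mesothelial markers had 1 of 6 tested, which did not pass. The part of these markers in the collagen results was not tested, and in bulk RNA fewer cells of a type and less RNA per cell cannot be told apart.

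All 5 tested fibrillar genes, of 11 with a probe, were higher in PMCA4 KO, beside 26.9% of all genes tested. They changed by 0.54 to 1.34, with a median of 1.04. That median was 0.67 with another background correction (normexp, offset 50) and 0.54 without the filter on dim probes. Col1a1 and Col1a2 encode the chains of type I collagen, the main fibril of the adventitia. Col1a1 had 13.08, 12.91, 12.95 and 13.15 on the PMCA4 KO arrays, against 12.24, 11.76, 11.70 and 11.89 on the PMCA4 WT arrays. The groups did not overlap, and the change was 1.13 (0.87 to 1.39), or 2.18-fold (adjusted p = 1.88e-05). Col1a2 had 9.83, 9.84, 9.95 and 9.85 on the PMCA4 KO arrays, against 9.44, 9.31, 8.94 and 9.32 on the PMCA4 WT arrays. Again every PMCA4 KO array lay above every PMCA4 WT array, with a change of 0.61 (0.39 to 0.84), or 1.53-fold (adjusted p = 5.11e-04). The intervals of the 2 type I chains do not meet (the lower bound for Col1a1 is 0.87 and the upper bound for Col1a2 is 0.84), but the difference between the chains was not tested.

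Col3a1 encodes type III collagen, the thinner fibril of elastic arteries. It had 10.28, 9.98, 9.86 and 10.10 on the PMCA4 KO arrays, against 9.44, 8.81, 8.22 and 8.39 on the PMCA4 WT arrays. PMCA4 WT replicate 1 stood nearest to the PMCA4 KO arrays, still below all of them, and the change was 1.34 (0.83 to 1.86), or 2.54-fold (adjusted p = 6.56e-04). The spread of this gene was 0.18 over the PMCA4 KO arrays and 0.54 over the PMCA4 WT arrays (SD, n = 4 each). Col5a1, a chain of the type V collagen that nucleates type I fibrils, had 13.67, 13.76, 13.83 and 13.74 on the PMCA4 KO arrays, against 13.34, 13.19, 13.12 and 13.19 on the PMCA4 WT arrays. The groups were separate at a change of 0.54 (0.39 to 0.69), or 1.46-fold (adjusted p = 7.86e-05). Among the PMCA4 WT arrays, replicate 3 was the lowest for all 5 fibrillar genes, and replicate 1 was the highest for 4 of the 5.

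Col2a1 encodes type II collagen, the fibrillar collagen of cartilage. It had 7.58, 7.19, 7.50 and 7.57 on the PMCA4 KO arrays, against 6.43, 6.52, 6.19 and 6.53 on the PMCA4 WT arrays. The groups were separate, and the gene was 2.06-fold higher, by 1.04 (0.80 to 1.28, adjusted p = 1.92e-05), a change that normexp with an offset of 50 made 0.67. The highest detection p among the PMCA4 WT arrays was 0.0188, so the signal was near background there. Of 10 cartilage and bone markers, 2 were tested and both were higher. Sox9, a transcription factor of cartilage, was 1.30-fold higher, and Bglap, which encodes osteocalcin, was at least 2.39-fold higher. Bglap was detected on all 4 PMCA4 KO arrays and 0 PMCA4 WT arrays, so it entered the test through PMCA4 KO alone and had to differ. Alpl was detected on 1 PMCA4 KO array and 2 PMCA4 WT arrays and was not tested. The cartilage matrix genes Acan, Comp, Hapln1, Matn1 and Matn3 and the bone genes Ibsp and Sp7 were detected on no array. The list summed to 853.5 to 959.4 on the PMCA4 KO arrays, against 640.4 to 773.1 on the PMCA4 WT arrays. Sox9, at mean log2 values of 8.92 in PMCA4 KO and 8.53 in PMCA4 WT, was the largest part of that sum, and undetected probes add their background to it. The part of this list in the Col2a1 result was not tested.

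The type IV chains of the basement membrane split in direction by gene pair. Of 6 genes with a probe, 4 were tested, and Col4a1 and Col4a2 were higher while Col4a5 and Col4a6 were lower. Col4a1 and Col4a2, whose products assemble into the common type IV molecule, lie next to each other on chromosome 8. Col4a5 and Col4a6, whose products assemble into a type IV molecule known from smooth muscle basement membranes, lie next to each other on chromosome X. The promoters of these 4 genes are shown because the members of each pair are transcribed in opposite directions from nearby starts and changed in the same direction. By the starts used here, the Col4a1 and Col4a2 transcripts overlap at their first bases, and those of Col4a5 and Col4a6 run away from each other. Each window runs from 250 bases before to 50 bases after a transcript start, 5′ to 3′ on the gene's own strand, from RefSeq on GRCm38.p6. The transcript starts of Col4a1 (minus strand, window chr8:11312777-11313076) and Col4a2 (plus strand, window chr8:11312555-11312854) are 21 bases apart, and capitals mark the 78 bases that both windows hold, as reverse complements.
Col4a1: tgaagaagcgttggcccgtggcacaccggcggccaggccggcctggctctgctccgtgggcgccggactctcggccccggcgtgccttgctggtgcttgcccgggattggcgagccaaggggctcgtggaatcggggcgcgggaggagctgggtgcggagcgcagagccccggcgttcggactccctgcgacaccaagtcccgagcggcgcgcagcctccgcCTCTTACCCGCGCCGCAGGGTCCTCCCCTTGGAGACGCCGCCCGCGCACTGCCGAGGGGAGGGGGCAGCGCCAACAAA
Col4a2: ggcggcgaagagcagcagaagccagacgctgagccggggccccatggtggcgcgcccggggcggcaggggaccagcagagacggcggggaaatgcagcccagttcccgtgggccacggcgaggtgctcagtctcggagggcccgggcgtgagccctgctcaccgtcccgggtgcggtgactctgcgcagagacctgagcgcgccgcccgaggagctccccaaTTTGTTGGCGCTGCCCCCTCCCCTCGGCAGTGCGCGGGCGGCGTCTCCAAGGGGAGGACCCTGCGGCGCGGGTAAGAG
The starts of Col4a5 (plus strand, window chrX:141475169-141475468) and Col4a6 (minus strand, window chrX:141474027-141474326) are 1343 bases apart, and these windows do not overlap. In them capitals mark a CCAAT box (CCAAT) or a GC box (GGGCGG) on either strand.
Col4a5: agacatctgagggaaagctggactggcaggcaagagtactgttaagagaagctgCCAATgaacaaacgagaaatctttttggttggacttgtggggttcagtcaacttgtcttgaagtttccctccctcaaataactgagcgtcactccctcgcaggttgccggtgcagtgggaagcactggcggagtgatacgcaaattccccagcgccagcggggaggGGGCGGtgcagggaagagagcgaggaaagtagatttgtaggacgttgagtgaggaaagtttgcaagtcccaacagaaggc
Col4a6: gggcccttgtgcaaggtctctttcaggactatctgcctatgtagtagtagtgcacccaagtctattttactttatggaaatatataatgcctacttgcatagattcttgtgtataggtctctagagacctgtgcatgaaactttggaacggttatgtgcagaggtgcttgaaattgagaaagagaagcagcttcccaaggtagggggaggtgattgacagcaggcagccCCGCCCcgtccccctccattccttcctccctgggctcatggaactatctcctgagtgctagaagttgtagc
Searched on both strands, the CCAAT box was found in the windows of Col4a1, Col4a2 and Col4a5 and not of Col4a6, and 37.4% of all 32851 promoter windows hold it. The GC box was found in all 4 windows, with 3 matches in that of Col4a2, and 35.7% of all windows hold it. G and C make up 74.0% of the Col4a1 window, 73.7% of Col4a2, 52.7% of Col4a5 and 48.3% of Col4a6, against a median of 52.7% over all windows. The share of windows with a GC box at a like base composition was not tested. The TATA box (TATAAA), held by 13.6% of all windows, was found in none of the 4. Among 29 windows of tested collagen and processing genes, 12 held the CCAAT box, 22 the GC box and 4 the TATA box. These are matches of letters, not sites of binding.

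Col4a1 had 13.95, 13.85, 13.81 and 13.87 on the PMCA4 KO arrays, against 12.43, 12.43, 12.33 and 12.45 on the PMCA4 WT arrays. Every PMCA4 KO array was far above every PMCA4 WT array, with a change of 1.46 (1.33 to 1.59), or 2.75-fold (adjusted p = 2.03e-08). Col4a2 had 13.06, 13.03, 13.06 and 13.08 on the PMCA4 KO arrays, against 11.63, 11.75, 11.38 and 11.63 on the PMCA4 WT arrays. It changed by 1.46 too (1.28 to 1.64), or 2.75-fold (adjusted p = 1.74e-07), and its groups were separate.

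Col4a5 had 10.96, 10.84, 10.99 and 10.95 on the PMCA4 KO arrays, against 11.55, 11.60, 11.56 and 11.49 on the PMCA4 WT arrays. All PMCA4 KO arrays were below all PMCA4 WT arrays, with a change of -0.62 (-0.75 to -0.49), or 1.53-fold lower (adjusted p = 1.09e-05). Col4a6 had 7.85, 7.50, 7.96 and 7.69 on the PMCA4 KO arrays, against 9.56, 9.50, 9.27 and 9.49 on the PMCA4 WT arrays. This was the largest fall among the 28 tested genes, a change of -1.71 (-1.94 to -1.47), or 3.26-fold lower (adjusted p = 4.2e-07), with no overlap. A second probe of Col4a6 was lower by a like amount, at -1.53 (-1.71 to -1.34, adjusted p = 1.64e-07), and the other was detected on 0 PMCA4 KO arrays and 1 PMCA4 WT array and was not tested. The median of the 4 type IV genes, 0.42, falls between the pairs and describes none of them; it was -0.0122 with dim probes kept in. The multiplexins Col15a1 and Col18a1, found in basement membrane zones, did not pass, with changes of 0.03 (-0.10 to 0.15, adjusted p = 0.711) and 0.01 (-0.19 to 0.22, adjusted p = 0.908).

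**Figure D2:**
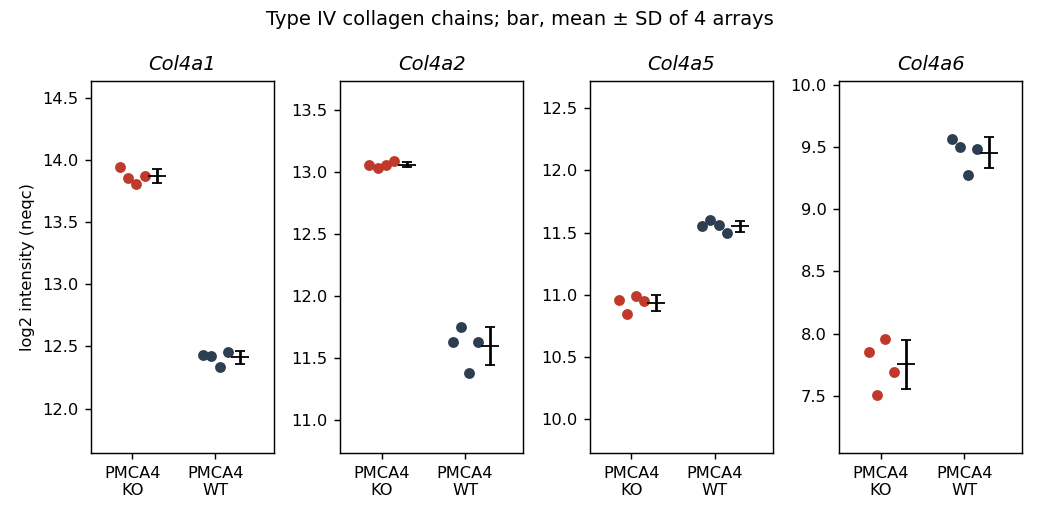
Log2 intensity of the 4 tested type IV collagen chains on each array, with PMCA4 KO at the left and PMCA4 WT at the right of each panel. Points are arrays and bars are the mean ± SD of 4 arrays, and all panels span the same range of log2 units. Col4a1 and Col4a2 are higher by 1.46 each in PMCA4 KO, and Col4a5 and Col4a6 are lower, by -0.62 and -1.71.

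Of 6 FACIT genes, 2 were tested. Col16a1, which encodes a fibril-associated collagen of smooth muscle and fibroblasts, had 13.05, 13.18, 13.10 and 13.05 on the PMCA4 KO arrays, against 12.66, 12.69, 12.47 and 12.78 on the PMCA4 WT arrays. The groups were separate, and the change was 0.45 (0.28 to 0.62), or 1.36-fold (adjusted p = 6.61e-04). Col9a1, a chain of cartilage type IX collagen, was detected on 3 PMCA4 KO and 2 PMCA4 WT arrays. It had 5.81, 5.85, 5.92 and 5.81 on the PMCA4 KO arrays, against 5.74, 6.24, 5.47 and 5.86 on the PMCA4 WT arrays, which overlapped (adjusted p = 0.914). The median of these 2 genes was 0.23, and it was 0.14 without PMCA4 WT replicate 3 and -0.0009 without the filter on dim probes.

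Col7a1, the chain of the anchoring fibrils that tie basement membrane to the stroma beneath it, was the only tested gene of the 3 network and anchoring collagens. It had 9.03, 8.90, 9.03 and 8.94 on the PMCA4 KO arrays, against 7.52, 7.51, 7.63 and 7.63 on the PMCA4 WT arrays. The groups stood well apart, at a change of 1.40 (1.26 to 1.54), or 2.64-fold (adjusted p = 4.12e-08). With normexp at an offset of 50, Col7a1 changed by 1.15, and its second probe was detected on no array. Type VI collagen forms beaded filaments near cell surfaces, and its neighbouring genes Col6a1 and Col6a2, on chromosome 10, had different calls. Col6a2 was higher, with 8.68, 8.35, 8.49 and 8.37 on the PMCA4 KO arrays, against 8.10, 8.17, 7.94 and 8.08 on the PMCA4 WT arrays, a change of 0.40 (0.21 to 0.59, adjusted p = 0.003). The brightest probe of Col6a1 did not pass, at -0.10 (-0.27 to 0.06, adjusted p = 0.251), while its 2 other probes were lower by -0.24 (adjusted p = 0.00945) and -0.21 (adjusted p = 0.0271). Col25a1, a transmembrane collagen detected on 2 arrays of each genotype, did not pass, at 0.12 (-0.25 to 0.48).

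Of the 13 processing genes, 11 were tested, 5 were higher, 0 were lower and 6 did not pass, beside 26.9% higher and 30.7% lower over all genes tested. The median change of the processing genes was 0.30, against 1.04 for the fibrillar genes, and the difference between these classes was not tested. The median is the value of Plod1, and it was 0.20 without PMCA4 WT replicate 1. Lysyl hydroxylases modify lysines for crosslinks, and Plod2 encodes the one that acts on the telopeptides at the ends of fibrillar chains. Plod2 had 10.72, 10.57, 10.53 and 10.61 on the PMCA4 KO arrays, against 9.18, 9.20, 9.11 and 9.14 on the PMCA4 WT arrays. With no overlap, it was 2.73-fold higher, by 1.45 (1.31 to 1.58, adjusted p = 2.96e-08). The other lysyl hydroxylases did not pass. Plod1, which acts within the helix, had 8.28, 8.05, 8.29 and 8.35 on the PMCA4 KO arrays, against 7.61, 8.16, 8.14 and 7.84 on the PMCA4 WT arrays, at 0.30 (0.03 to 0.58, adjusted p = 0.0606). It passed under 5 of 18 processing alternatives, at 0.38 without PMCA4 WT replicate 2 and at 0.37 without either PMCA4 WT replicate 3 or PMCA4 KO replicate 2 among them. Plod3, which also adds glucose to hydroxylysine sugars, changed by 0.08 (-0.06 to 0.22, adjusted p = 0.284), and Colgalt1, which adds the galactose before it, by -0.13 (-0.29 to 0.02, adjusted p = 0.121).

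Prolyl 4-hydroxylase makes the hydroxyproline that keeps the triple helix stable at body temperature. Its catalytic subunit P4ha2 had 9.19, 9.11, 9.19 and 8.96 on the PMCA4 KO arrays, against 8.34, 8.42, 8.52 and 8.29 on the PMCA4 WT arrays. These groups were separate, at a change of 0.72 (0.55 to 0.89), or 1.65-fold (adjusted p = 2.49e-05). P4ha1, the more widespread subunit, had 8.08, 8.30, 8.20 and 8.33 on the PMCA4 KO arrays, against 8.14, 8.07, 8.03 and 8.12 on the PMCA4 WT arrays, which overlapped, and its 0.14 (-0.02 to 0.30) did not pass (adjusted p = 0.120), though it did without PMCA4 KO replicate 1, at 0.19 (adjusted p = 0.0395). Prolyl 3-hydroxylase works as a complex of P3h1 with Crtap and cyclophilin B. P3h1 was 1.24-fold higher, by 0.31 (0.14 to 0.48, adjusted p = 0.00632), with 8.46, 8.28, 8.25 and 8.25 on the PMCA4 KO arrays, against 8.12, 7.87, 8.04 and 7.98 on the PMCA4 WT arrays. Crtap did not pass, at -0.03 (-0.17 to 0.11, adjusted p = 0.714).

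Bmp1 encodes the procollagen C-proteinase, which removes the C-propeptide of fibrillar procollagens. It had 12.48, 12.59, 12.46 and 12.59 on the PMCA4 KO arrays, against 12.21, 12.27, 12.20 and 12.18 on the PMCA4 WT arrays. The groups were separate, at a change of 0.31 (0.18 to 0.45), or 1.24-fold (adjusted p = 0.00124). Pcolce and Pcolce2 encode enhancers of that cleavage. Pcolce2 had 7.75, 7.75, 7.66 and 7.63 on the PMCA4 KO arrays, against 6.44, 6.98, 7.51 and 7.15 on the PMCA4 WT arrays. The PMCA4 WT arrays were scattered but all below the PMCA4 KO arrays, and the change was 0.68 (0.27 to 1.09), or 1.60-fold (adjusted p = 0.00973). The change of Pcolce2 was 0.47 with normexp at an offset of 50, and 0.49 to 0.84 without each array in turn. Pcolce did not pass, at 0.03 (-0.12 to 0.19, adjusted p = 0.717).

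Several probes were tested for 8 genes, and the probes of a gene had the same call in 7 of them, with Col6a1 the exception; 56.3% of all probes tested passed. The 4 Bmp1 probes were higher by 0.31 to 0.42, and the 3 P3h1 probes by 0.25 to 0.32. The second probes of Col2a1, Col3a1 and Pcolce2 gave 0.96, 1.24 and 0.77, and that of Crtap gave -0.02. The second Pcolce2 probe was detected on 4 PMCA4 KO arrays and 1 PMCA4 WT array, so it met the detection filter through PMCA4 KO. The second Col2a1 probe was detected on 4 PMCA4 KO and 3 PMCA4 WT arrays. Probes of one gene share its RNA and its arrays, so they are not replicates.

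**Figure D3:**
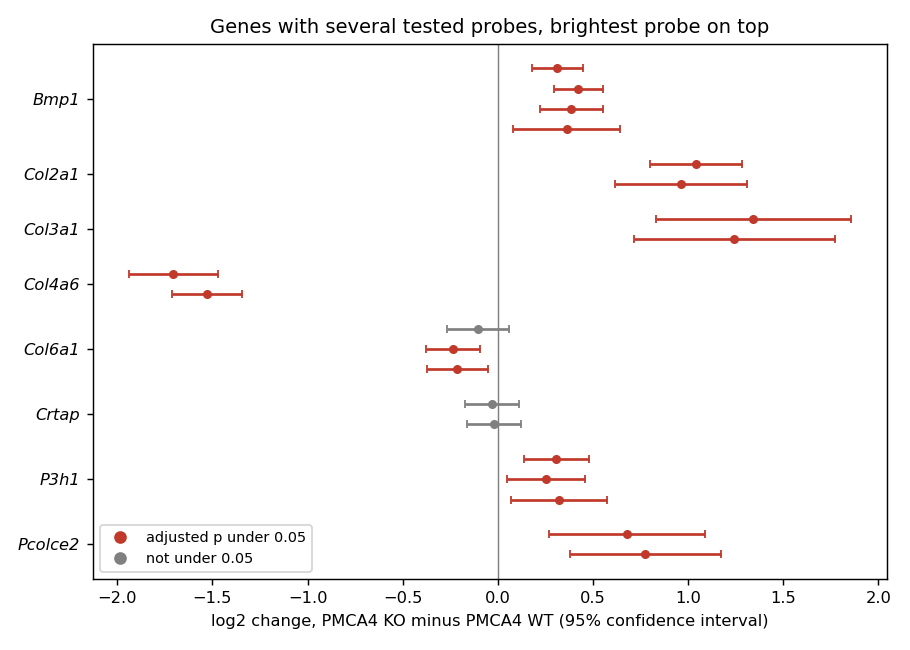
Log2 change of each tested probe (PMCA4 KO minus PMCA4 WT, horizontal axis) for the 8 collagen and processing genes with several tested probes, the brightest on top. Points are the fitted change over 4 arrays per genotype, bars are 95% confidence intervals, and red marks an adjusted p under 0.05. The Col4a6 probes lie at -1.71 and -1.53, and the 3 Col6a1 probes lie between -0.24 and -0.10 with 2 of them past the threshold.

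Other genes of the collagen pathway were followed through 7 lists with 58 genes on the array. Of these 46 were tested, 24 were higher, 6 were lower and 16 did not pass, and their median change was 0.21, beside 26.9% higher and 30.7% lower over all genes tested, the background for each list below. Loxl3, Lum, Itga1 and Itga11, counted among the 24, were detected on all 4 PMCA4 KO arrays and 0 PMCA4 WT arrays and so entered the test through PMCA4 KO alone. The lower bounds given for them hold on the scale of neqc with its offset of 16. With normexp at an offset of 50, the fitted changes were 0.76 for Loxl3, 3.26 for Lum, 0.79 for Itga1 and 2.82 for Itga11, which are smaller than those bounds. Crosslinking genes gave 5 higher and 0 lower of 6 tested, 1 of which, the transglutaminase Tgm2 at 0.20 (adjusted p = 0.0416), lost its call in 9 of 18 alternatives, among them leaving out PMCA4 KO replicate 1, 2 or 4 or PMCA4 WT replicate 2, 3 or 4. Lox encodes lysyl oxidase, which starts the covalent crosslinks of collagen and elastin. It had 14.76, 15.05, 14.76 and 14.77 on the PMCA4 KO arrays, against 13.17, 13.18, 13.17 and 12.97 on the PMCA4 WT arrays. These values do not overlap, and Lox was 3.29-fold higher, by 1.72 (1.52 to 1.91, adjusted p = 9.27e-08). Loxl2, a lysyl oxidase that also crosslinks type IV collagen, had 8.80, 9.02, 8.78 and 8.77 on the PMCA4 KO arrays, against 7.64, 7.44, 7.46 and 7.57 on the PMCA4 WT arrays. It was 2.49-fold higher, with a change of 1.32 (1.14 to 1.49, adjusted p = 2.90e-07). Loxl3 was detected on no PMCA4 WT array and was at least 2.07-fold higher, Loxl4 was 1.35-fold higher, by 0.44 (adjusted p = 0.00109), or by 0.29 with normexp at an offset of 50, and Loxl1 did not pass, at -0.04 (-0.17 to 0.10).

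Of 9 tested genes of folding and modification, 5 were higher and 0 were lower. Tmem38b, an ion channel of the endoplasmic reticulum, was higher by 0.94 (0.79 to 1.09, adjusted p = 1.13e-06), and Fkbp14, a prolyl isomerase that helps folding, by 0.87 (0.73 to 1.00, adjusted p = 1.15e-06). Kdelr2, the receptor that returns chaperones to the endoplasmic reticulum, was higher by 0.38, and Serpinh1, the collagen chaperone HSP47, by 0.27 (0.15 to 0.39, adjusted p = 0.00184). The 6 secretion genes split, with 2 higher and 2 lower. Sec23a and Sec24d, coat proteins of the vesicles that leave the endoplasmic reticulum, were higher by 0.74 and 0.33. Mia3, the receptor that loads procollagen into those vesicles, was lower by -0.66 (-0.92 to -0.41, adjusted p = 6.90e-04), and Creb3l1, a transcription factor of the secretory pathway, by -0.82 (-0.98 to -0.65, adjusted p = 8.59e-06). With normexp at an offset of 50, Mia3 and Creb3l1 changed by -0.42 and -0.50. Among propeptide proteases only Mep1b was tested, and it was lower by -0.22 (adjusted p = 0.0489), which held in 4 of 17 alternatives. Leaving out 1 array kept this call for PMCA4 WT replicate 3 and PMCA4 KO replicate 4 and lost it for the other 6.

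Fibril partners included the largest changes of these lists, with 4 higher and 2 lower of 9 tested. Dcn, the proteoglycan decorin that binds fibrils, had 14.10, 14.12, 14.11 and 14.24 on the PMCA4 KO arrays, against 7.17, 6.97, 7.60 and 7.76 on the PMCA4 WT arrays. It was higher by 6.77 (6.42 to 7.11), or 109-fold (adjusted p = 3.62e-10). Lum, the proteoglycan lumican, was detected on no PMCA4 WT array and was at least 11.5-fold higher, and Dpt, which encodes dermatopontin, was higher by 3.46 (3.06 to 3.86). Dcn, Lum and Dpt are also among the 10 fibroblast markers above. Ogn, the related proteoglycan osteoglycin, went the other way, with 11.17, 10.99, 11.01 and 11.07 on the PMCA4 KO arrays, against 12.76, 12.76, 12.68 and 12.65 on the PMCA4 WT arrays, a change of -1.65 (-1.80 to -1.51, adjusted p = 1.38e-08). The other lower gene was the fibril-binding Fmod, at -0.41 (adjusted p = 0.0218). It was detected on all 4 PMCA4 WT arrays and 1 PMCA4 KO array, so it met the detection filter through PMCA4 WT, the group where it is higher. Its call is therefore no independent support for a fall. Fmod changed by -0.22 with normexp at an offset of 50 and did not pass without PMCA4 WT replicate 3, PMCA4 KO replicate 1 or PMCA4 KO replicate 2.

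Of 6 tested receptor and uptake genes, 4 were higher and 1 was lower. Itga11 and Itga1, integrin subunits that bind fibrillar collagen and type IV collagen, were detected on no PMCA4 WT array and were at least 10.4-fold and at least 2.15-fold higher. Mrc2, an endocytic collagen receptor, was higher by 0.60 (0.39 to 0.80), and Ddr2, a tyrosine kinase receptor for fibrillar collagen, was lower by -0.43 (-0.64 to -0.21, adjusted p = 0.00357). Breakdown genes had 4 higher and 0 lower of 9 tested. Ctsk, the collagen-cleaving cathepsin K, had 9.98, 9.89, 9.70 and 9.73 on the PMCA4 KO arrays, against 5.37, 5.63, 6.63 and 5.80 on the PMCA4 WT arrays. The change was 3.97 (3.46 to 4.47, adjusted p = 2.31e-07), or 2.98 with normexp at an offset of 50. Ctsk was detected on all 4 PMCA4 KO arrays and 2 PMCA4 WT arrays. It therefore met the detection filter through PMCA4 KO, the group where it is higher, and its call is no independent support for a rise. The collagenase Mmp13 was higher by 2.07 (1.76 to 2.38, adjusted p = 7.75e-07), and by 1.48 to 2.19 over 18 processing alternatives. The inhibitors Timp2 and Timp3 were higher by 1.01 and 0.64, with Timp3 at 1.01 as the mean of its probes. Mmp2, a gelatinase, and Mmp14, a membrane-bound collagenase, did not pass, at -0.02 (-0.21 to 0.16) and 0.06 (-0.12 to 0.24).

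**Figure D4:**
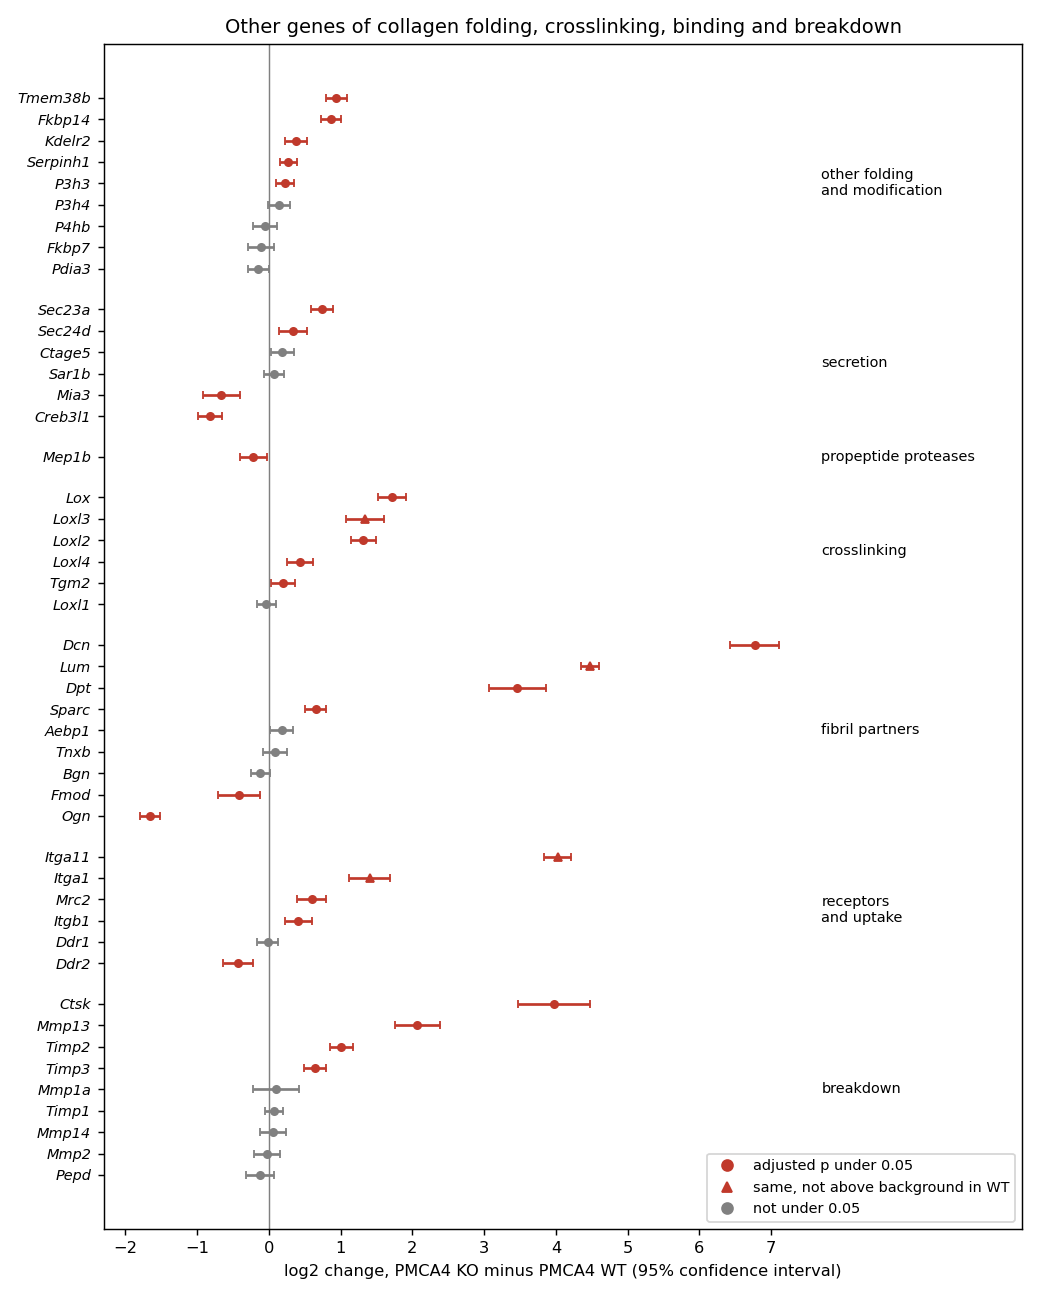
Log2 change (PMCA4 KO minus PMCA4 WT, horizontal axis) of the 46 tested genes of the other collagen pathway lists, by list down the page. Points are the fitted change over 4 arrays per genotype with 95% confidence intervals, red marks an adjusted p under 0.05, and triangles mark genes that were above background on no PMCA4 WT array, whose change is not a bound. Dcn stands at 6.77 and Ogn at -1.65, with Lox at 1.72 at the top of the crosslinking list.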

How the data were processed

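Genotypes and replicate numbers came from the sample titles. The deposited non-normalised table holds a background-subtracted signal intensity per probe and array, 28.42% to 29.69% of them below 0, and per the file headers a detection p-value for each. A second deposited table holds quantile normalised log2 values, used as an alternative. No source used here names the scanner software. Every per-sample column was used. Between 11697 and 11987 probes per array were detected.

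Intensities were processed with neqc (offset 16, negative controls inferred from the detection p-values) of limma 3.58.1 in R 4.3.3. The moderated comparison of genotypes (lmFit, eBayes) had no block and used Benjamini-Hochberg adjustment. The fit was tested on simulated data. Of the probes, 23978 had 1 symbol, 0 several and 1719 none in the platform annotation, and 23962 matched the GRCm38.p6 gene table. Of the collagen and processing genes, 2, with 4 probes, were found through an older symbol. Promoter windows were found for 40 of the 50 genes. Figures were drawn with matplotlib 3.10.9.

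The members, classes and lists were chosen with earlier results of these data known. From each pathway list, up to 4 genes past the threshold with the largest change were named, with Serpinh1 and Lox, and other genes only beside these. Adamts2 was not analysed here. Class medians carry no test. Alternatives were other background corrections, normalisations, filters and variance models, the deposited log2 values, a replicate block, the mean of a gene's probes, type IV with multiplexins, and leaving out each array.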

Additional observations from a re-analysis of the deposited data

Results flagged for a closer look

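Among 148 groups of 4 arrays, 9 held an array whose gap to the nearest other, over the whole range, exceeded Dixon's 95% critical value, and chance flags about 1 in 20 groups. Of the collagen and processing genes, P3h1 had 8.46 on PMCA4 KO replicate 1, with the other PMCA4 KO arrays at 8.25 to 8.28. Pcolce had 12.08 on PMCA4 WT replicate 3, with the other PMCA4 WT arrays at 12.23 to 12.24. PMCA4 KO replicate 2 stood apart for 3 pathway genes, low for P4hb at 14.48 (others 14.67 to 14.69), high for Lox at 15.05 (14.76 to 14.77) and high for Loxl2 at 9.02 (8.77 to 8.80). Dcn was high on PMCA4 KO replicate 4, at 14.24 (14.10 to 14.12). On PMCA4 WT arrays, Lox was low on replicate 4, at 12.97 (13.17 to 13.18), Loxl3 on replicate 1, at 5.20 (5.60 to 5.62), and Mrc2 on replicate 3, at 7.99 (8.30 to 8.34). P3h1, Lox, Loxl2, Loxl3, Dcn and Mrc2 passed without each array in turn, with log2 changes of 0.26 to 0.35, 1.65 to 1.75, 1.26 to 1.35, 1.23 to 1.41, 6.63 to 6.89 and 0.51 to 0.63.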

How the results depend on the processing

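Over 17 or 18 alternatives per gene, 25 of the 28 tested collagen and processing genes kept their call, and none of the 17 called genes lost it or changed sign. Plod1 passed under 5 alternatives, P4ha1 without PMCA4 KO replicate 1, and Col6a1 with the mean of its probes, at -0.18. The counts of these genes ranged from 15 to 18 higher and from 2 to 3 lower. Of the 46 pathway genes 38 kept their call; Mep1b, Tgm2 and Fmod lost theirs under some alternatives, and pathway counts ranged from 23 to 27 higher and from 4 to 7 lower. Class medians moved more. The fibrillar median was 0.67 with normexp at an offset of 50, 0.87 with the deposited log2 values and 0.54 without the filter on dim probes, which adds members near background. Without that filter the type IV median was -0.0122 and the FACIT median -0.0009, both turned in sign. The type IV median was 0.0199 with the multiplexins added, and the FACIT median 0.45 at a detection p under 0.01, which leaves Col16a1 alone. The processing median was 0.24 with normexp at an offset of 50, 0.28 with median scaling and with the deposited log2 values, 0.27 with array weights, and 0.20 to 0.31 without each array in turn. The replicate numbers did not pair the arrays: same-numbered deviations correlated at 0.09, 0.02, -0.03 and 0.01, and 2 of 4 PMCA4 KO arrays correlated best with their own number. With the replicate number as a block, 15 collagen and processing genes were higher and 2 lower, 23 and 5 pathway genes were higher and lower. The labels name no slide or scan batch.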
